A study of Mus musculus with 40 samples.

Results

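The flavin-containing monooxygenases measured here were Fmo1, Fmo2, Fmo4 and Fmo5, 4 of the 55359 genes in the count tables, chosen by gene symbol and matched to their Ensembl identifiers. Their transcripts were followed in liver RNA from 40 male C57BL/6 mice, in 8 groups of 5, that were gavaged 7 times at intervals of 4 days from 30 days of age with sesame oil alone (vehicle) or with sesame oil carrying the dioxin TCDD at 7 doses (30, 10, 3, 1, 0.3, 0.1 or 0.03 μg/kg) and killed at 58 days of age. TCDD persists in tissue and activates a ligand-dependent transcription factor, the aryl hydrocarbon receptor (AhR). Each library came from 1 mouse, all tissue was taken between ZT0 and ZT3, the start of the light phase, and the question was how the members responded across the dose range. All 4 members passed the filter on low counts that left 15373 genes for testing. Libraries held 15.5 M to 21.0 M counts in genes, with a median of 17.5 M. Every listed marker of hepatocytes, endothelial cells, stellate cells, macrophages, cholangiocytes and lymphocytes was detected in every group.

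Flavin-containing monooxygenases sit in the membrane of the endoplasmic reticulum and add 1 oxygen atom to soft nucleophiles, mainly the nitrogen and sulfur of drugs, amines and sulfides. Each enzyme holds FAD, which NADPH reduces and molecular oxygen converts into a hydroperoxide before the substrate arrives, so the reaction needs no separate reductase, in contrast to that of the cytochromes P450. FMO1 has a broad substrate range and also oxidises hypotaurine to taurine. FMO5 accepts few of the classical substrates and inserts oxygen next to carbonyl groups (Baeyer-Villiger oxidation). FMO2 is best known as the lung form, and FMO4 is the least studied of these enzymes.

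Fmo1, Fmo2 and Fmo4 lie on the minus strand of chromosome 1 and Fmo5 lies on the plus strand of chromosome 3 in the GENCODE M21 annotation, in which no other gene overlaps any of them. The summed exons span 6304 bases for Fmo1, 5609 for Fmo2, 3707 for Fmo4 and 5675 for Fmo5. RefSeq's table of promoters (build GRCm38.p6) held windows for Fmo2, Fmo4 and Fmo5, but not for Fmo1. The 250 bases before the annotated start are printed from 5′ to 3′ on the strand of the gene because TCDD is an AhR ligand. The 50 bases next to the start are in capitals.
Fmo2 (chr1:162898759-162899008, minus strand, the more upstream of 2 starts): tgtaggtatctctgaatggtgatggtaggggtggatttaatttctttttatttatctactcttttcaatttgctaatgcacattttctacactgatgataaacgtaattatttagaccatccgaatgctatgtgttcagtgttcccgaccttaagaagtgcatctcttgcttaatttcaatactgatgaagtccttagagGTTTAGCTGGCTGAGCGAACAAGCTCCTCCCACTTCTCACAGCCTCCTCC
Fmo4 (chr1:162812550-162812799, minus strand): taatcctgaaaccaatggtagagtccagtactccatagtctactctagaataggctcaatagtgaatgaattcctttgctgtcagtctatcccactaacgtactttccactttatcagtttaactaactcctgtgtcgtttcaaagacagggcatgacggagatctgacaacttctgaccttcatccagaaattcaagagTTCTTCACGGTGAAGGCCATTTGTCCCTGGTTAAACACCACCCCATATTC
Fmo5 (chr3:97628769-97629018, plus strand): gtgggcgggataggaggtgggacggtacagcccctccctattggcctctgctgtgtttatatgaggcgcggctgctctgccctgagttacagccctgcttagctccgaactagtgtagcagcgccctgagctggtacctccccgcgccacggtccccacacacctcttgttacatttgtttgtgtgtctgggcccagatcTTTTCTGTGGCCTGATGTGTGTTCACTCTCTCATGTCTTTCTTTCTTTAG
The core of the dioxin response element, the motif bound by AhR with its partner ARNT, was searched as GCGTG on both strands. It was found in none of the 4 windows of these 3 genes, and 28.2% of all 32851 windows of this length held it. Of the 6 AhR targets called at 30 μg/kg below, 4 held it in any of their windows, a count by gene that is not on the scale of the share of windows. A match is a description of letters, and its lack in a window of 250 bases says nothing of elements elsewhere. GC content was 39.6% in the printed Fmo2 window and 47.6% in that of its other start, which is not printed. It was 42.4% in the window of Fmo4 and 56.0% in that of Fmo5, beside a median of 52.4% over all windows.

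In vehicle liver the members differed widely in level. Levels are given as CPM, the counts of a gene per 1000000 counts in genes with library sizes scaled by TMM (trimmed mean of M-values), and as CPM per kilobase of exon where genes are compared with each other. Fmo5 was highest, at 145 ± 13.5 CPM per kilobase (SD, n = 5), followed by Fmo1 at 35.7 ± 4.99. Fmo4 stood at 2.13 ± 0.50 and Fmo2 at 1.46 ± 0.62. Single mice of these last neighbours overlapped, from 1.41 to 2.72 for Fmo4 and from 0.88 to 2.35 for Fmo2. Fmo5 and Fmo1 therefore made up 78.6% ± 3.48 and 19.4% ± 2.99 of the summed level per kilobase, with 1.16% ± 0.28 from Fmo4 and 0.79% ± 0.34 from Fmo2 (SD, n = 5). Counts per library over all groups were 9534 to 19717 for Fmo5, 2883 to 5259 for Fmo1, 69 to 736 for Fmo2 and 63 to 255 for Fmo4. The coefficient of variation within a group ran from 9.22% to 47.2% for Fmo2 and from 14.5% to 36.8% for Fmo4, against 7.17% to 23.0% for Fmo1 and 8.93% to 24.0% for Fmo5.

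**Figure D1:**
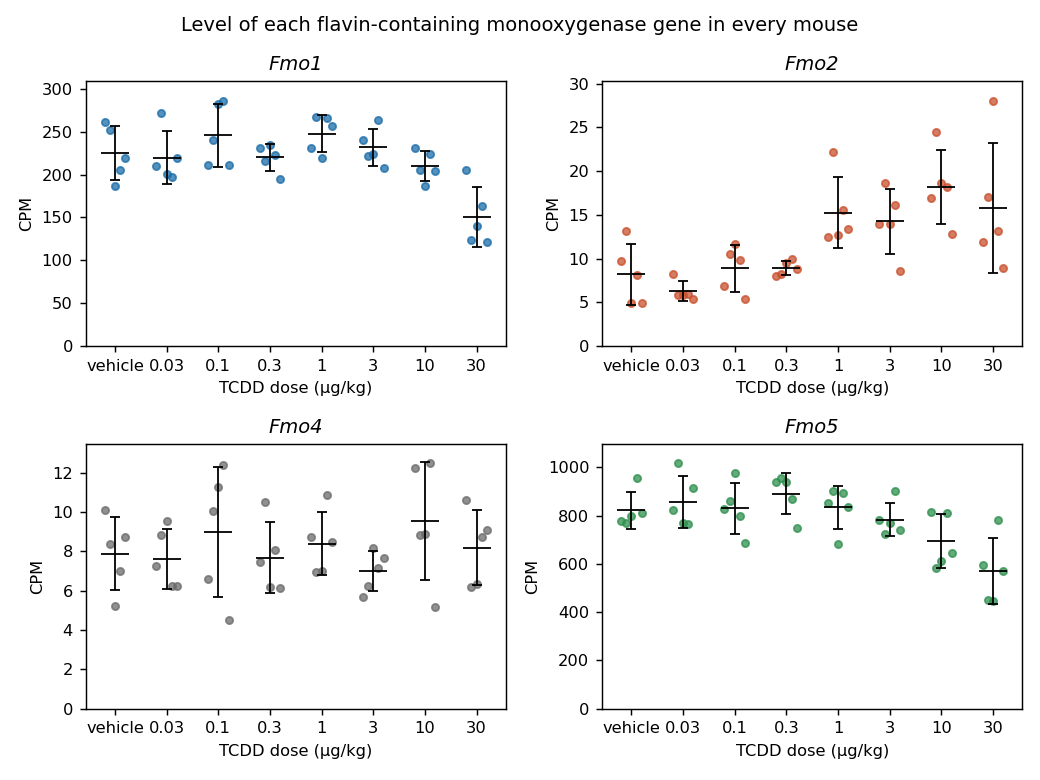
CPM of each member (y axes, TMM-scaled, from 0) in every mouse by TCDD dose (x axes, μg/kg), with points for mice and black bars for the mean ± SD of 5 mice. Fmo2 means lie between 14.2 and 18.2 CPM from 1 μg/kg upward against 8.20 in vehicle, Fmo1 and Fmo5 means are lowest at 30 μg/kg, and Fmo4 shows no group that stands apart.

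Fmo2 was the member whose transcript rose. A gene was called when its Benjamini-Hochberg adjusted p in edgeR's quasi-likelihood test was under 0.05 and it differed from vehicle by a factor of 1.5 or more. By this rule Fmo2 was called higher at 1, 3, 10 and 30 μg/kg, by 1.86-, 1.73-, 2.21- and 1.92-fold, and no other member was called at any dose.

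In the 5 vehicle mice Fmo2 was at 4.94, 4.98, 8.12, 9.75 and 13.2 CPM. At 1 μg/kg it was at 12.4, 12.7, 13.4, 15.5 and 22.2 CPM, and at 3 μg/kg at 8.58, 13.9, 14.0, 16.1 and 18.6 CPM. All 5 mice of both groups lay above the vehicle mean of 8.20 CPM, while 3 of 5 and 4 of 5 lay above the highest vehicle mouse, so both groups overlapped with vehicle. The log2 fold change was 0.89 (SE 0.26, adjusted p = 0.042) at 1 μg/kg and 0.79 (SE 0.26, adjusted p = 0.0437) at 3 μg/kg. Across all genes 2.78% were called at 1 μg/kg, 2.15% of all genes upward, and 6.75% at 3 μg/kg, 4.53% upward. Both calls were lost when single libraries were left out. At 1 μg/kg the call was lost without vehicle replicate 3, 4 or 5 or without replicate 2, 4 or 5 of the dose, with log2 fold changes of 0.72 to 0.94, and at 3 μg/kg without vehicle replicate 3, 4 or 5 or without replicate 1, 2, 3 or 4 of the dose, with 0.66 to 0.80.

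At 10 μg/kg Fmo2 was at 12.8, 16.9, 18.2, 18.7 and 24.5 CPM, so that 4 of 5 mice exceeded every vehicle mouse and the remaining one lay just under the highest. The log2 fold change of 1.15 (SE 0.26, 95% interval 0.62 to 1.67) had an adjusted p of 0.000652. At this dose 21.8% of all genes were called and 13.6% were called upward. The call held under each of the 13 alternative settings and without each library in turn, with log2 fold changes from 1.00 to 1.38.

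At 30 μg/kg Fmo2 was at 8.90, 11.8, 13.1, 17.0 and 28.1 CPM. Again all 5 mice lay above the vehicle mean, but only 2 exceeded the highest vehicle mouse, and the SD of 7.46 CPM was the widest of any group. The log2 fold change was 0.94 (SE 0.26, adjusted p = 0.00212), beside 42.1% of all genes called at this dose, 23.2% higher and 18.9% lower. The replicate at 28.1 CPM carried part of it, since without that mouse the log2 fold change was 0.61 (adjusted p = 0.0342). The libraries fall into 2 runs of title numbers, up to 27 and from 28, and within the first run the log2 fold change was 0.62 (adjusted p = 0.175) and within the second 1.33 (adjusted p = 0.0125).

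Fmo5, the most abundant member, was lower at 30 μg/kg without reaching the fold threshold. In vehicle it was at 771, 776, 798, 811 and 957 CPM. At 30 μg/kg it was at 447, 452, 572, 597 and 783 CPM, below the vehicle mean of 823 CPM in all 5 mice and below every vehicle mouse in 4 of them. The log2 fold change was -0.53 (SE 0.13, 95% interval -0.79 to -0.27, adjusted p = 0.000579), a 1.44-fold lower level. At 10 μg/kg its values of 582, 612, 645, 811 and 816 CPM all lay under the vehicle mean too, with a log2 fold change of -0.25 (adjusted p = 0.142). Without replicate 4 of the 30 μg/kg group, the mouse at 783 CPM, the change was -0.69 and met the call rule, as it did in the first run of title numbers alone (-0.59, adjusted p = 0.0141), while the second run gave -0.58 (adjusted p = 0.0324).

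Fmo1 was likewise lower at the top dose, and at no other dose had an adjusted p under 0.05. In vehicle it was at 187, 205, 219.8, 252 and 262 CPM. At 30 μg/kg it was at 122, 124, 140.0, 163 and 205 CPM, again below the vehicle mean of 225 CPM in all 5 mice and below every vehicle mouse in 4. The log2 fold change was -0.58 (SE 0.12, 95% interval -0.83 to -0.33, adjusted p = 1e-04), which is 1.49-fold lower and thus just outside the fold threshold of 1.5. At 10 μg/kg its 5 mice spanned 187 to 231 CPM, within the vehicle range, with a log2 fold change of -0.10 (adjusted p = 0.573). Fmo1 met the call rule at 30 μg/kg without vehicle replicate 3 (-0.64), 4 (-0.61) or 5 (-0.59) and without replicate 1 (-0.72) or 4 (-0.63) of the dose. Within the runs the change was -0.52 (adjusted p = 0.0502) and -0.61 (adjusted p = 0.0052).

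By adjusted p alone, with no fold threshold, Fmo1 and Fmo5 both count as lower at 30 μg/kg, as did 26.6% of all genes. The size of both differences followed the scaling of the libraries. With libraries scaled to total counts alone, which raised the median log2 fold change of all genes at 30 μg/kg from 0.03 to 0.52, Fmo1 stood at -0.10 (adjusted p = 0.498) and Fmo5 at -0.05 (adjusted p = 0.767), and Fmo2 at 1.45 (adjusted p = 4.42e-05). A change of scaling shifts all genes almost alike, so it could hardly alter the order of the members around that median. Fmo2 was above it and Fmo1 and Fmo5 below it under both scalings, which is no separate result.

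Fmo4 was not called at any dose. Its vehicle mice were at 5.24, 7.00, 8.40, 8.74 and 10.1 CPM, and the 30 μg/kg mice at 6.20, 6.33, 8.73, 9.11 and 10.6 CPM. The groups overlapped almost wholly, with a log2 fold change of 0.05 (95% interval -0.41 to 0.51, adjusted p = 0.873), whose sign turned without vehicle replicate 3 (-0.07) or without replicate 1 (-0.06) or 5 (-0.01) of the dose. Group means of Fmo4 ran from 6.99 CPM at 3 μg/kg to 9.53 CPM at 10 μg/kg.

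**Figure D2:**
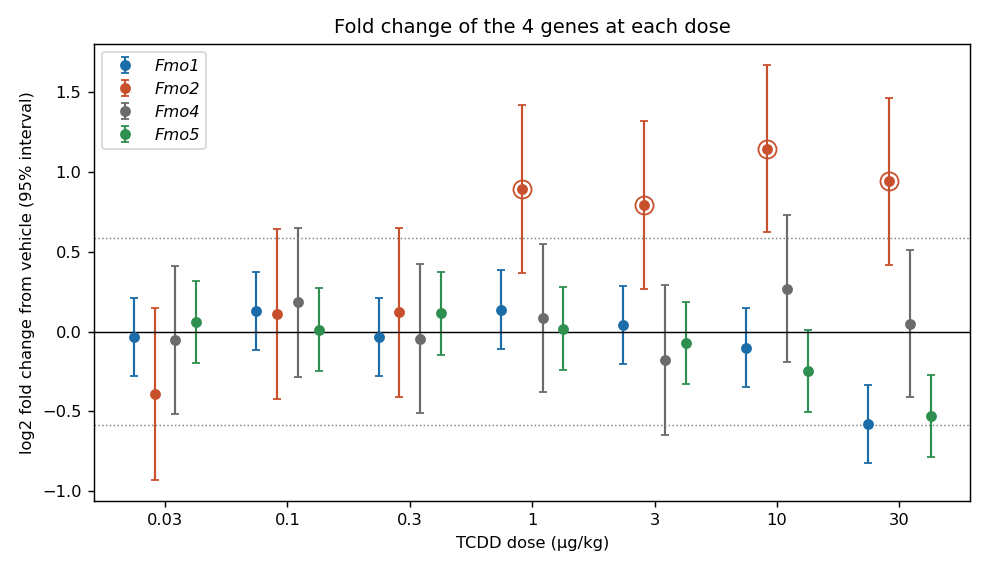
Log2 fold change of each member from vehicle (y axis) with its 95% interval from the edgeR fit at each TCDD dose (x axis, μg/kg). Dotted lines mark a fold change of 1.5 and open rings mark calls. Fmo2 is ringed from 1 to 30 μg/kg, and Fmo1 and Fmo5 lie on or inside the lower dotted line at 30 μg/kg.

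At 0.03, 0.1 and 0.3 μg/kg none of the members was called by edgeR, by DESeq2 or by limma on the deposited log2 values, and none had an unadjusted p under 0.05. The lowest unadjusted p was 0.151, 0.297 and 0.378 at these doses, and the share of all genes called was 0.0195%, 0.0976% and 0.468%. Fmo2 was at 5.38, 5.82, 5.90, 5.96 and 8.26 CPM at 0.03 μg/kg, the group with its lowest mean, 6.26 CPM. It was at 5.41 to 11.7 CPM at 0.1 μg/kg and 8.06 to 10.0 CPM at 0.3 μg/kg, all inside the vehicle range. Fmo1 means lay between 219.7 and 246 CPM and Fmo5 means between 830.0 and 890.1 CPM over these groups.

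All comparisons with vehicle share the same 5 vehicle mice, so the members were also compared between neighbouring doses. No member was called between 3 and 1 μg/kg, where 0.0585% of all genes were, or between 10 and 3 μg/kg, where 6.77% were, and none had an unadjusted p under 0.05 in either. Fmo2 changed by -0.10 and 0.35 on the log2 scale over these steps, with 95% intervals of -0.61 to 0.42 and -0.16 to 0.87. Between 30 and 10 μg/kg, where 21.1% of all genes were called, no member was called, but Fmo1 (unadjusted p = 0.000325) and Fmo5 (unadjusted p = 0.0331) lay under 0.05 before adjustment. Fmo1 was lower in all 5 mice than the 10 μg/kg mean of 210.1 CPM, by -0.48 (SE 0.12, adjusted p = 0.00216), which is 1.39-fold. By adjusted p alone 16.9% of all genes were lower over this step. Without replicate 1 of the 30 μg/kg group, the mouse at 205 CPM, Fmo1 was called (-0.62, adjusted p = 3.84e-05). Fmo5 stood at -0.28 (adjusted p = 0.0893) and Fmo2 at -0.20 (adjusted p = 0.58) over the same step.

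Across all 40 libraries, a slope was fitted on dose steps from 0 (vehicle) to 7 (30 μg/kg). Fmo2 rose by 0.20 on the log2 scale per step (SE 0.031, adjusted p = 5.12e-07), beside 31.5% of all genes with an upward slope at an adjusted p under 0.05. Fmo5 fell by 0.066 per step (SE 0.016, adjusted p = 0.000756) and Fmo1 fell by 0.050 (SE 0.018, adjusted p = 0.0153), beside 26.1% of all genes downward. The Fmo4 slope was 0.013 (SE 0.025, adjusted p = 0.668). The slopes of Fmo1 and Fmo5 rested on the high doses and on the scaling. With doses up to 3 μg/kg alone they were 0.016 (adjusted p = 0.608) and -0.011 (adjusted p = 0.714), and with total counts alone 0.0040 (adjusted p = 0.825) and -0.0098 (adjusted p = 0.548). Fmo2 kept its upward slope in both settings.

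A ratio of 2 members within a mouse does not depend on how libraries are scaled. The 6 pairs were compared between 30 μg/kg and vehicle with 2-sided exact permutation tests, whose smallest possible p with 5 mice a side was 0.00794. The log2 ratio of Fmo1 to Fmo2 fell from 4.85 ± 0.47 to 3.33 ± 0.73 (SD, n = 5), a difference of -1.52 (exact p = 0.00794, adjusted p = 0.0238). Vehicle mice spanned 4.25 to 5.44 and 30 μg/kg mice 2.31 to 4.10, with no overlap. The ratio of Fmo1 to Fmo4 fell from 4.84 ± 0.19 to 4.18 ± 0.27, a difference of -0.65 with no overlap (exact p = 0.00794, adjusted p = 0.0238). Fmo2 to Fmo5 differed by 1.48 (exact p = 0.0238, adjusted p = 0.0357) and Fmo4 to Fmo5 by 0.61 (exact p = 0.0159, adjusted p = 0.0318), with overlap in both pairs.

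A difference in response between Fmo1 and Fmo5 was not shown, with a log2 ratio of -1.88 ± 0.29 in vehicle and -1.92 ± 0.32 at 30 μg/kg, a difference of -0.04 (exact p = 0.81, adjusted p = 0.81). Fmo2 to Fmo4 differed by 0.87 (exact p = 0.135, adjusted p = 0.162), and neither was one between this low pair. The ratio of Fmo1 to Fmo2 was already lower at the middle doses, with means of 4.04 at 1, 4.05 at 3 and 3.55 at 10 μg/kg, and that of Fmo1 to Fmo4 was 4.88, 5.04 and 4.51. The adjusted p of the pairs with Fmo5 rose to between 0.0595 and 0.0714 without vehicle replicate 1, 3, 4 or 5 or 30 μg/kg replicate 1, 2 or 3 for Fmo2, and without vehicle replicate 3 or 4 or 30 μg/kg replicate 1, 2, 3 or 5 for Fmo4. Differences ran from 1.17 to 1.70 and from 0.48 to 0.73 over all such omissions. Within a run of title numbers no pair can pass the threshold, and the difference for Fmo1 to Fmo2 was -1.25 in the first run and -1.81 in the second.

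**Figure D3:**
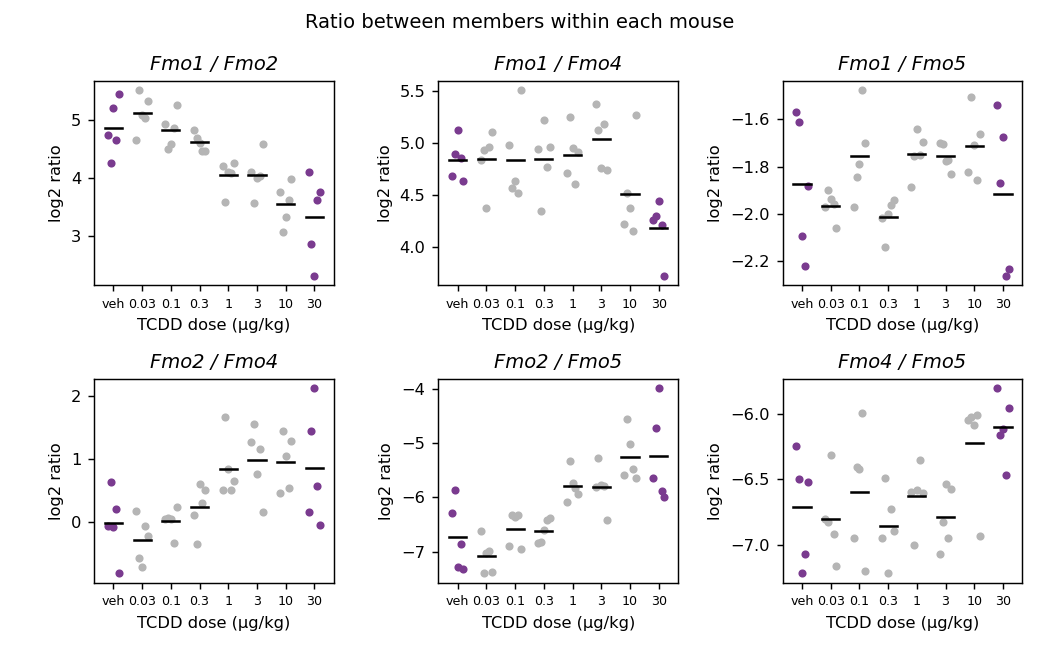
Log2 ratio of each pair of members within a mouse (y axes) by TCDD dose (x axes, μg/kg), with a point for each mouse, a bar for the mean of 5 mice, and the 2 tested groups, vehicle (veh) and 30 μg/kg, in purple. Vehicle and 30 μg/kg do not overlap for Fmo1 to Fmo2 and Fmo1 to Fmo4, and their means differ by 0.04 for Fmo1 to Fmo5.

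Fmo2 and Fmo4 made up more of the summed level per kilobase at 30 μg/kg by their means, while Fmo1 and Fmo5 stayed within their spread. Fmo4 made up 1.16% ± 0.28 in vehicle and 1.72% ± 0.27 at 30 μg/kg, and Fmo1 19.4% ± 2.99 and 18.6% ± 3.22. The sum of the 4 members was 184 ± 12.0 CPM per kilobase in vehicle (SD, n = 5) and 129 ± 26.7 at 30 μg/kg. Most of this sum was Fmo5 and Fmo1, whose lower level depended on the scaling. With total counts alone their log2 fold changes were -0.05 and -0.10 at that dose. Fmo2 made up 0.79% ± 0.34 in vehicle, 1.42% ± 0.30 at 1 μg/kg and 2.34% ± 1.45 at 30 μg/kg, and Fmo5 still made up 77.3% ± 4.08 there. Per kilobase, Fmo2 exceeded Fmo4 by its mean at 1 (2.72 ± 0.73 against 2.26 ± 0.43), 3 (2.54 ± 0.66 against 1.89 ± 0.27) and 10 μg/kg (3.25 ± 0.75 against 2.57 ± 0.81). At 30 μg/kg it did so too, at 2.82 ± 1.33 against 2.21 ± 0.51, by less than the SD of Fmo2. The order of Fmo5 over Fmo1 over both of them held in every group.

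Markers of other cell types were also higher at the upper doses, and those of hepatocytes lower, and their part in the results on the members was not tested. Over all genes 23.2% were called higher and 18.9% lower at 30 μg/kg, 13.6% higher at 10 μg/kg and 2.15% higher at 1 μg/kg. The summed level of the 5 hepatocyte markers (Alb, Ttr, Apoa1, Apob and Tat) ran from 95495 to 115995 CPM in vehicle and from 28984 to 58611 CPM at 30 μg/kg, and all 5 were called lower there. Fewer hepatocytes and less of these transcripts per hepatocyte cannot be told apart in whole liver. The summed endothelial markers (Pecam1, Kdr, Stab2 and Clec4g) ran from 113 to 150.1 CPM in vehicle, from 195 to 216 CPM at 10 μg/kg with 3 of 4 called higher, and from 183 to 239.5 CPM at 30 μg/kg with Pecam1 and Kdr called higher.

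The stellate and fibroblast markers (Col1a1, Dcn, Lrat, Des and Pdgfrb) summed to 124 to 178 CPM in vehicle, 255 to 328 CPM at 10 μg/kg and 339 to 717 CPM at 30 μg/kg, where 4 of 5 were called higher and Des was not. At 1 μg/kg, the lowest dose with Fmo2 called, 0 of 5 stellate and 0 of 4 endothelial markers were called and their sums spanned 124 to 183 and 134 to 178 CPM, with Kdr at 0.45 on the log2 scale (unadjusted p = 0.0045, adjusted p = 0.0861). At 3 μg/kg Col1a1 was called higher (0.95, adjusted p = 0.0381), and Pecam1 (0.53, adjusted p = 0.0482), Kdr (0.48, adjusted p = 0.0336) and Clec4g (0.40, adjusted p = 0.0168) were higher under the fold threshold. Macrophage markers (Adgre1, Clec4f, Cd68 and Csf1r) were called higher in 2 of 4 at 1 μg/kg and 4 of 4 at 30 μg/kg, with sums of 95.1 to 131 CPM in vehicle, 169 to 186 CPM at 1 μg/kg and 258 to 507 CPM at 30 μg/kg. Of the cholangiocyte markers, Krt19, Krt7 and Epcam were called higher and Sox9 lower at 30 μg/kg, where their sum ran from 15.9 to 95.8 CPM against 14.4 to 19.3 in vehicle. The lymphocyte markers Cd3e, Cd79a and Ms4a1 were all called higher at 30 μg/kg, at sums of 2.54 to 7.34 CPM against 1.37 to 2.39 in vehicle.

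The single mice at 30 μg/kg varied in these sums. Replicate 1, with the highest Fmo1 level of its group (205 CPM), had the highest hepatocyte sum (58611 CPM) and the lowest stellate sum (339 CPM). Replicate 3, with the highest Fmo2 level (28.1 CPM), had the lowest hepatocyte sum (28984 CPM), the middle endothelial sum (205 CPM) and the stellate sum next to the highest (637 CPM). Replicate 5 went the other way. It had the lowest Fmo1 (122 CPM) and Fmo2 (8.90 CPM) levels, with the hepatocyte sum next to the highest (46749 CPM) and the highest endothelial sum (239.5 CPM). A relation between the members and these sums was not tested. The members were also set against the mean log2 CPM of the 5 hepatocyte markers, which weights the markers equally, unlike their sum. On this scale Fmo1 was at -5.22 ± 0.24 in vehicle (SD, n = 5) and -4.07 ± 0.33 at 30 μg/kg. Fmo5 was at -3.34 ± 0.08 and -2.15 ± 0.40, so both stood higher relative to these markers at that dose. Fmo2 (-10.07 ± 0.65 and -7.39 ± 0.93) and Fmo4 (-10.05 ± 0.36 and -8.25 ± 0.19) did so as well. All 5 markers were called lower there, so any gene that fell less than they did stands higher on this scale.

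**Figure D4:**
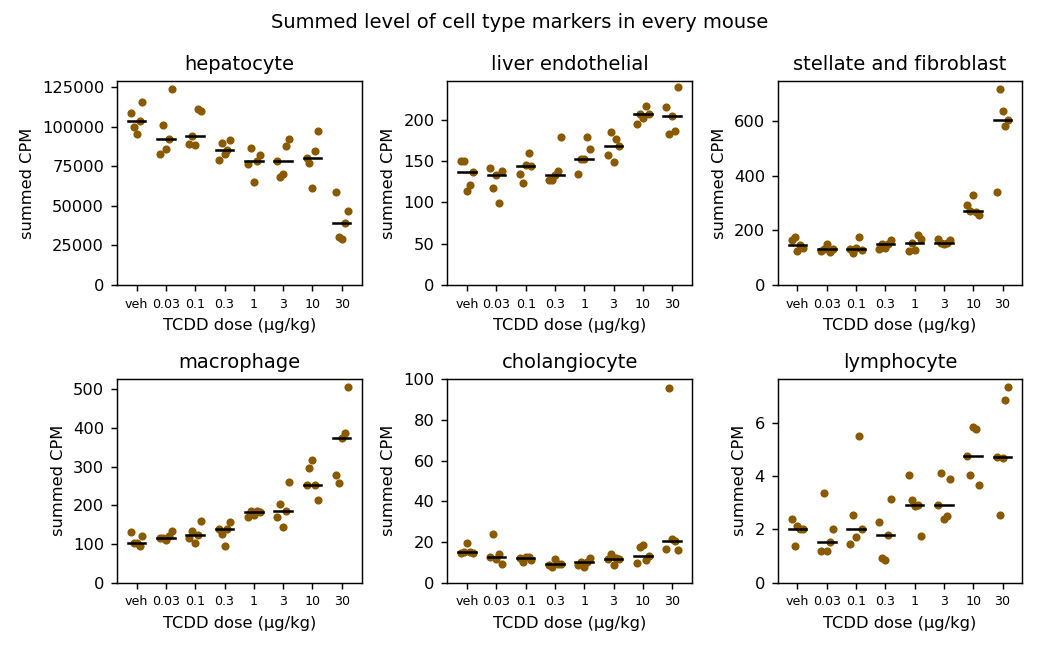
Summed CPM of the markers of each cell type (y axes, from 0) in every mouse by TCDD dose (x axes, μg/kg, veh for vehicle), with a point for each mouse and a bar for the median of 5. Hepatocyte sums are lowest and stellate and macrophage sums highest at 30 μg/kg, and endothelial sums at 10 and 30 μg/kg lie above all vehicle mice.

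The genes around the reaction were described by lists of enzymes for the cofactors, partners and products. At 30 μg/kg 42.1% of all genes were called, 23.2% higher and 18.9% lower, and the median log2 fold change over all genes was 0.03. The counts of called genes in these short lists are to be read beside those shares. The list of FAD supply had 0 of 4 genes called, with a median of 0.23. These genes encode riboflavin transporters (Slc52a2, Slc52a3), riboflavin kinase (Rfk) and FAD synthetase (Flad1). DESeq2 and limma on the deposited values also called 0 of them. Slc52a2 (0.49, adjusted p = 0.0111) and Flad1 (-0.26, adjusted p = 0.037) passed the adjusted p in edgeR and missed the fold threshold, so that 2 count by adjusted p alone. With libraries scaled to total counts 2 of the 4 were called, and in run 2 alone 1. In NADPH supply 2 of 5 were called, both higher, with a median of -0.16. Pgd, phosphogluconate dehydrogenase, rose 4.22-fold from 63.3 ± 5.94 to 267 ± 85.4 CPM (adjusted p = 2.33e-13), and G6pdx, glucose-6-phosphate dehydrogenase, rose 3.32-fold from 10.1 ± 3.13 to 33.6 ± 27.0 CPM (adjusted p = 8.64e-06) with groups that overlapped. Pgls, Me1 and Idh1 were not called.

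Of the 3 genes of microsomal electron transfer, which serves the cytochromes P450 beside the flavin-containing monooxygenases, 1 rose and 1 fell. Of all genes 23.2% were called higher and 18.9% lower. Por, the NADPH-dependent reductase of the P450 system, rose 4.20-fold from 217 ± 48.5 to 909 ± 303 CPM (adjusted p = 6.18e-12). Cyb5r3, cytochrome b5 reductase, was 3.42-fold lower, at 661 ± 94.3 in vehicle and 193 ± 58.2 CPM at 30 μg/kg (adjusted p = 4.02e-12). Cyb5a was not called at this dose, but was called higher at 0.3, 1, 3 and 10 μg/kg, by 1.69-, 1.77-, 1.77- and 1.57-fold. Of all genes 0.468% were called in either direction at 0.3 μg/kg, and 2.15%, 4.53% and 13.6% were called higher at 1, 3 and 10 μg/kg. Por and Cyb5r3 had no overlap between vehicle and 30 μg/kg.

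On the route to taurine, into which FMO1 feeds, 3 of 5 genes were called, all lower, with a median log2 fold change of -1.21. Of all genes 18.9% were called lower at this dose. Cdo1, which oxidises cysteine, went from 1517 ± 196 to 657 ± 210.1 CPM and Csad, which makes hypotaurine, from 299 ± 83.5 to 95.6 ± 14.6 CPM, a log2 change of -1.21 and -1.64. Baat, which joins bile acids to taurine, was 4.64-fold lower (adjusted p = 1.38e-13). The remaining Ado and Slc6a6, the taurine transporter, stood at 0.38 (adjusted p = 0.0045) and 0.36 (adjusted p = 0.0106) on the log2 scale, higher than vehicle but under the fold threshold, so that by adjusted p alone, and with total counts, all 5 genes count as changed. In the list of N-oxide and S-oxide reduction, which reverses the products of these enzymes, 4 of 5 were called lower with a median of -0.68. Mtarc1, a molybdenum enzyme of the mitochondrial outer membrane, was 4.74-fold lower, its relative Mtarc2 1.60-fold, the methionine sulfoxide reductase Msra 1.51-fold and the aldehyde oxidase Aox3 2.36-fold, while Aox1 was at 0.11 on the log2 scale (adjusted p = 0.405). In run 1 alone 2 of the 5 were called.

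Of the 4 hepatocyte transcription factors reported, 3 were called lower, beside 18.9% of all genes. Cebpa went from 459 ± 56.9 to 147 ± 25.4 CPM, Foxa2 from 44.2 ± 10.5 to 18.5 ± 6.90 and Onecut1 from 6.17 ± 2.50 to 0.77 ± 0.86 (SD, n = 5), and Hnf4a was at -0.36 on the log2 scale, under the fold threshold. Among the AhR complex and its targets 6 of 8 were called, all higher, beside 23.2% of all genes, and Ahr and Arnt themselves were not. Cyp1a1 went from 1.66 ± 0.48 to 5767 ± 666 CPM, Cyp1b1 from 0.31 ± 0.27 to 1635 ± 295 and Cyp1a2 from 1029.7 ± 139.9 to 23112 ± 2865. Tiparp rose 28.5-fold and Nqo1 27.9-fold, and Ahrr, the AhR repressor, went from 0.11 ± 0.06 to 67.2 ± 28.7 CPM. The Fmo2 change of 1.92-fold was small beside these targets in the same mice.

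**Figure D5:**
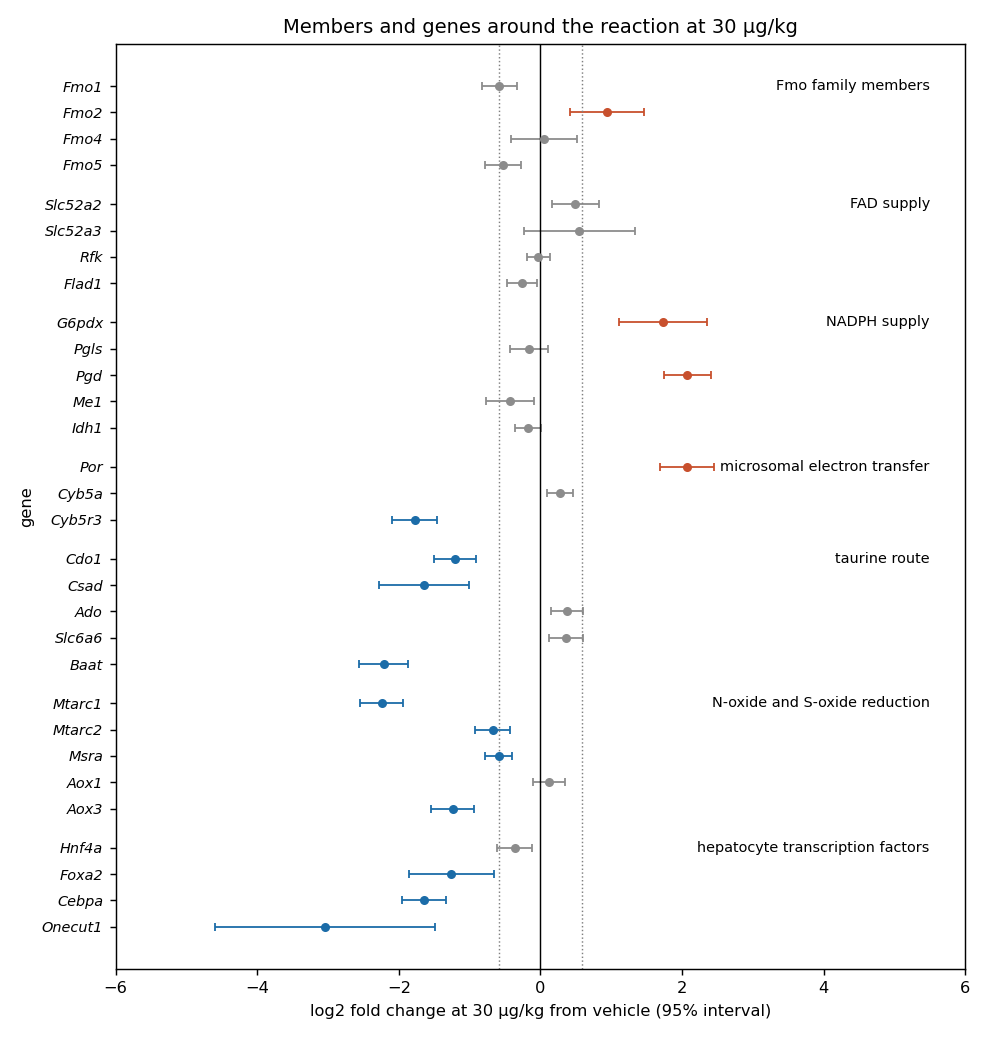
Log2 fold change from vehicle at 30 μg/kg (x axis, with its 95% interval from the edgeR fit) of the members and of 26 genes in 6 lists (y axis), leaving out the AhR list. Genes called higher are red, genes called lower blue and the others grey, and dotted lines mark a fold change of 1.5. Fmo1 and Fmo5 are grey beside the left dotted line, and 10 of the 14 genes on the taurine route, in oxide reduction and among the transcription factors are blue.

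For each member the genes most like it were found by Pearson r of log2 CPM over the 40 libraries among 10775 genes. The libraries share doses, scaling and depth, so these values are given as a description. Genes most like Fmo1 were Mgam (r = 0.87), Ugt1a5 (0.87), Rdh11 (0.86), Cyp2c38 (0.86) and Aldh6a1 (0.85). Ugt1a5 shares exons with other genes of its cluster and Cyp2c38 has close relatives, so their counts are uncertain. All 5 stood further below vehicle at 30 μg/kg than Fmo1 did, from -3.51 for Cyp2c38 to -1.14 for Aldh6a1 on the log2 scale.

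Genes most like Fmo5 were Apol7a (r = 0.86), Srebf1 (0.85), Thrsp (0.85), Lonp2 (0.84) and Ido2 (0.83). Srebf1, a transcription factor of lipid synthesis, and Thrsp, which is expressed with lipogenic enzymes, stood at -2.05 and -2.34 on the log2 scale at 30 μg/kg, also further from vehicle than Fmo5. Those most like Fmo2 were Wwtr1 (r = 0.80), Ptprb (0.80), Ccdc171 (0.80), Uaca (0.79) and Mtx3 (0.79). Ptprb, a phosphatase receptor known from endothelial cells, was at 60.9 CPM in vehicle and 80.1 CPM at 30 μg/kg, and Wwtr1, a co-activator of the Hippo pathway, at 12.7 and 33.8 CPM. The likeness was weaker for Fmo4, whose highest r was 0.59 (Mettl4).

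Among the members themselves Fmo1 and Fmo5 had the highest r over the 40 libraries, 0.75, and 0.56 after the mean of each dose group was taken out. Within dose groups Fmo1 and Fmo4 were about as alike, at 0.55 (0.30 over all libraries), and Fmo4 and Fmo5 stood at 0.46 (0.21). Fmo2 and Fmo5 stood at -0.40 and -0.08 by these measures, and Fmo1 and Fmo2 at -0.06 and 0.32.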

How the data were processed

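Liver RNA was sequenced as paired-end reads from unstranded NEBNext Ultra II libraries of 40 mice. The authors deposited 1 file of raw gene counts from the STAR aligner per library, and the submitters' processing notes name FastQC 0.11.7, Trimmomatic 0.39 and STAR 2.7.3a. They name both GRCm39 and mm10, and the annotation is not given in the sources used here. Reads mapped to several places (5.24% to 7.43%) are not in the counts, so genes with near-identical copies are undercounted. A table of normalized log2 values, also deposited, was used here only in an alternative.

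Groups came from the dose label, with 5 mice per dose. Chi-square per degree of freedom was at least 9.97 in all 80 replicate pairs, so no library was a copy of another. Genes were named from GENCODE M21 (52083 of 55359 identifiers), and the GRCm38.p6 coordinates belong to the reference tables. Mtarc1 and Mtarc2 were matched by their older symbols Marc1 and Marc2.

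Unstranded counts were analysed with edgeR 4.0.16 in R 4.3.3. Genes were kept by filterByExpr (minimum count 10, minimum total 15), libraries were scaled by TMM, a quasi-likelihood model with a mean for each dose was fitted to all 40 libraries, and Benjamini-Hochberg adjustment ran over the 15373 genes within each contrast. The fold threshold is the study's, and edgeR stands in for its empirical Bayes probability, whose tool is not installed. SE is the log2 fold change divided by the root of F. Ratios used log2 CPM with a prior count of 2.

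Members and lists were chosen with earlier results of these data known. Named were the 4 members, each list gene called at 30 μg/kg, and per member the 5 genes of at least 50 mean counts with the highest r. List genes not called were named to complete a list, with their values seen. Alternatives were DESeq2 1.42.0, limma 3.58.1 on the deposited log2 values, other scalings and filters, a run of title numbers (19 and 21 libraries) as covariate or alone, the strand column, no fold threshold, and single libraries left out. Run with order within number triples (6 levels) was added after seeing the data. With dose means taken out, mean log2 deviations of Fmo2 ran from 0.28 (run 1, order 2) to -0.45 (run 2, order 3). In run 2, order 3, Fmo4 was at -0.32, Fmo1 at -0.14 and Fmo5 at -0.09. Other genes of the family, and some genes that the lists and this rule would name, are not reported here.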

Additional observations from a re-analysis of the deposited data

Results flagged for a closer look

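In 2 of 32 groups of 5 mice, 1 mouse stood apart by Dixon's criterion (a gap to the nearest mouse of more than 0.71 of the group's range), which chance gives in about 1 of 20 groups. Fmo2 in replicate 1 of the 0.03 μg/kg group was at 8.26 CPM against 5.38 to 5.96 CPM in the other mice, a gap of 0.80 of the range. Fmo5 in vehicle replicate 4 was at 957 CPM against 771 to 811 CPM in the others, a gap of 0.78.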

How the results depend on the processing

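The counts of members called at 0.03, 0.1, 0.3 and 10 μg/kg were the same under all 13 alternatives and without each library in turn, as was the call of Fmo2 at 10 μg/kg. No paired analysis was possible because replicate numbers follow accession order and pair no mice. At 1 and 3 μg/kg the number of members called fell from 1 to 0 in run 1 alone, run 2 alone and the strand column, and at 3 μg/kg also with vehicle and the dose alone, and without single libraries it was 0 to 1 at both doses. At 30 μg/kg the number called, 1, became 3 with no fold threshold, 2 in run 2 alone and 2 with vehicle and the dose alone, and 1 to 3 without single libraries. In run 1 alone it was 1, but the member called was Fmo5 (-0.59), with Fmo2 at 0.62. Fmo1 was called at 30 μg/kg with no fold threshold (-0.58), in run 2 alone (-0.61) and with vehicle and the dose alone (-0.59), Fmo5 with no fold threshold (-0.53), and without single libraries they ranged from -0.72 to -0.52 and from -0.69 to -0.47. Fmo4 at 30 μg/kg ranged from -0.068 to 0.15 without single libraries. Between 30 and 10 μg/kg 1 member (Fmo1) was called with no fold threshold and 0 to 1 without single libraries. Scaling to total counts alone, which moved the median of all genes, turned Fmo1 at 10 μg/kg to 0.11, and Fmo2 and Fmo4 between 30 and 10 μg/kg to 0.092 and 0.035. Under it the slopes were 0.0040 for Fmo1, 0.070 for Fmo4 (adjusted p = 0.0172) and -0.0098 for Fmo5. With doses up to 3 μg/kg alone they were 0.016, -0.020 and -0.011. The log2 ratio differences within runs, with 2 against 3 mice and no p under the threshold possible, were -1.25 and -1.81 for Fmo1 to Fmo2, -0.62 and -0.62 for Fmo1 to Fmo4, 1.30 and 1.81 for Fmo2 to Fmo5, and 0.68 and 0.62 for Fmo4 to Fmo5, and 0.052 in run 1 for Fmo1 to Fmo5. Without single libraries Fmo1 to Fmo5 ranged from -0.13 to 0.046, Fmo2 to Fmo5 from 1.17 to 1.70 and Fmo4 to Fmo5 from 0.48 to 0.73. Of the gene lists, FAD supply went from 0 to 2 called with no fold threshold and with total counts alone and to 1 in run 2 alone, the taurine route from 3 to 5 with no fold threshold and with total counts alone, and oxide reduction from 4 to 2 in run 1 alone. Where no setting's construction shows it, the cause was not tested. Depth limits Fmo2 and Fmo4, with as few as 69 and 63 counts in a library.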
